A study of Mus musculus with 4 samples.

Results

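The genes described here encode the proteins of the cytosolic ribosome. They were taken as the rows of the count table whose whole symbol is Rpl or Rps, a number and at most a single further letter with or without digits after it, together with the stalk genes Rplp0, Rplp1 and Rplp2 and Rpsa. Symbols that go on beyond this, such as those of the Rps6k kinases, Rpl36al and copies marked as pseudogenes, and genes of the mitochondrial ribosome do not meet this rule. It gave 84 of 24442 genes, of which 33 are named for the small and 51 for the large ribosomal subunit. They lie on 19 chromosomes. In all, 82 passed the filter on low counts and were tested among 11661 genes, while Rpl10l and Rpl39l had 0 counts in all 4 libraries.

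Transcripts were measured by RNA sequencing in Lgr6-positive and Lgr6-negative cells from mammary glands of 5-week-old female mice, with 2 libraries of each population. All mice carried the Lgr6-eGFP-CreErt2 allele, which marks cells that use the promoter of Lgr6, a receptor of the R-spondin pathway. Cells were sorted from a LIN- fraction after enzymatic digestion and lysis of red cells, and no treatment is given. The lineage markers, the gate of the Lgr6-negative cells and whether the replicates came from separate animals are not stated in the labels. The p-values therefore cover the variation among these 4 libraries, which may be technical.

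Each ribosome is built from a small subunit, which reads the messenger RNA, and a large subunit, which joins amino acids. Most of its proteins are present once per ribosome, and their genes are among the most strongly transcribed in nearly every cell. The transcripts begin with a run of pyrimidines that places their translation under control of the mTOR kinase, and many of the genes carry small nucleolar RNAs in their introns.

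Total counts per library differed little, at 6819127 and 6995568 for Lgr6-positive cells and 6920996 and 7167465 for Lgr6-negative cells. Lgr6 itself had 172 and 655 counts in Lgr6-positive libraries, against 3 and 10 in Lgr6-negative libraries (log2 fold change 5.52, SE 1.47, edgeR adjusted p = 0.0510). The populations also differed in their marker genes. All 14 leukocyte markers were lower in Lgr6-positive cells, with a summed level of 2276 and 2719 CPM (TMM-scaled counts, relative to equal library sizes), against 34282 and 39313 CPM in Lgr6-negative cells. Of 15 epithelial markers, 13 were higher, summing to 6621 and 6438 CPM in Lgr6-positive and 224 and 218 CPM in Lgr6-negative cells. Krt7 had 0 counts in both Lgr6-negative libraries, as had Pdgfra of the fibroblast list, and Cd3g and Nkg7 of the lymphocyte list had 0 in both Lgr6-positive libraries. Endothelial markers were higher for 5 of 8, fibroblast markers for 3 of 8 and red-cell markers for 6 of 7 tested genes (Hbb-b2 and Hbb-bt had the same counts in every library and are 1 measurement), and lymphocyte markers were lower for 3 of 9. Rn45s, the precursor of ribosomal RNA, made up 17.2% and 14.5% of Lgr6-positive and 18.7% and 30.8% of Lgr6-negative counts. The part of these differences in the ribosomal protein results was not tested, except where a value without Rn45s or without a library is given.

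Ribosomal protein genes as a group took a smaller share of the counts in Lgr6-positive than in Lgr6-negative cells. Summed over the members, Lgr6-positive libraries had 347547 and 328255 counts, against 379210 and 448747 counts for Lgr6-negative libraries. That is 5.10% and 4.69% of all counts in Lgr6-positive cells and 5.48% and 6.26% in Lgr6-negative cells. With Rn45s left out of the totals, the shares were 6.16% and 5.49% in Lgr6-positive and 6.74% and 9.05% in Lgr6-negative cells. The populations did not overlap on either scale, and Lgr6-negative replicate 2 was the highest library on both. In bulk samples of this kind, fewer cells of a type and less RNA per cell cannot be told apart.

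**Figure D1:**
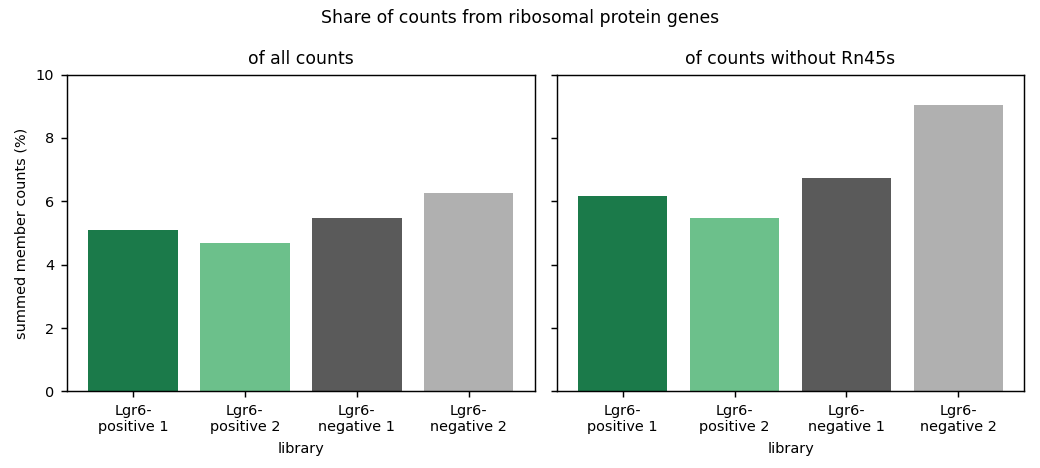
Summed counts of the 84 ribosomal protein genes as a percentage of all counts (left) and of all counts other than Rn45s (right), 1 bar per library, Lgr6-positive before Lgr6-negative. Both Lgr6-positive bars are below both Lgr6-negative bars, and the gap to Lgr6-negative replicate 2 is wider without Rn45s.

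On the scale of TMM-normalized CPM, which adjusts for the unequal share of abundant transcripts, the members summed to 42617 and 41594 CPM in Lgr6-positive and 59165 and 79768 CPM in Lgr6-negative cells. In the edgeR quasi-likelihood test over all genes, 16 of 82 members were lower in Lgr6-positive cells (19.5%) at a Benjamini-Hochberg adjusted p under 0.05, 66 were not called and 0 were higher. At an unadjusted p under 0.05, 2 members were higher, a count without a share over all genes at that threshold beside it. DESeq2 called 1 member higher, Rps4l, with 1412 of all tested genes called higher. In the edgeR test at the adjusted threshold, 4.57% of all tested genes were called lower and 4.49% higher. The log2 fold change was below 0 for 76 of 82 members, against 47.7% of all tested genes. Its median was -0.75 over the members (middle range -1.24 to -0.44) and 0.10 over all tested genes. For 59 members both Lgr6-positive libraries lay below both Lgr6-negative libraries, an arrangement seen in 25.9% of all tested genes. The reverse arrangement held for 3 members, against 30% of all tested genes.

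Most of these genes are abundant, and the background differs among abundant genes. There were 74 members with at least 1000 counts in every library, and 16 of these were called lower (21.6%). Of the 353 other genes at that level, 19% were called lower and 2.27% higher. Over all 427 genes at that level, members included, the shares were 19.4% lower and 1.87% higher. The share of members called is therefore near that of other abundant genes. The median log2 fold change of the abundant members was -0.75, against -0.45 in the 353 others, and 69.1% of the others were below 0. Fold changes of the members were also closer together, with a middle range of -1.22 to -0.44 against -1.11 to 0.12 in the other abundant genes, a difference that was not tested.

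**Figure D2:**
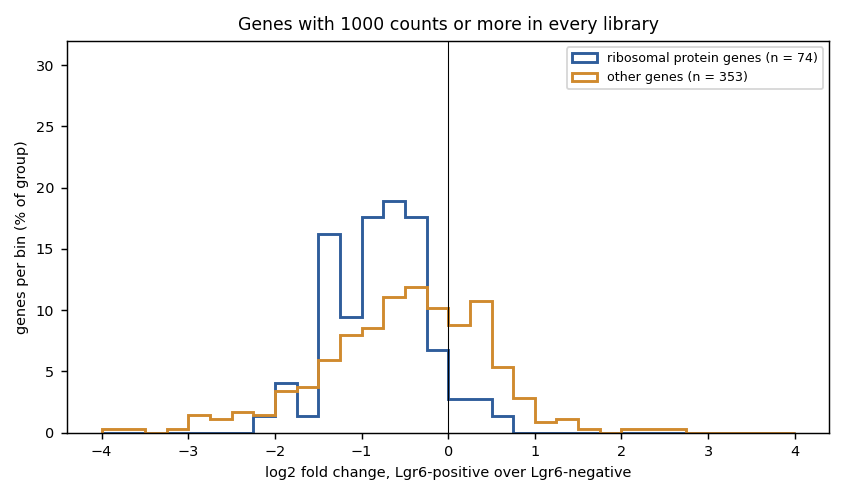
Distribution of log2 fold changes, Lgr6-positive over Lgr6-negative, for the 74 ribosomal protein genes and the 353 other genes with at least 1000 counts in every library, as a percentage of each group per bin. Both distributions sit mostly below 0, with medians of -0.75 for the ribosomal protein genes and -0.45 for the others.

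The size of the shift depended on the scaling between libraries, and so did the number of members below 0. With TMM 76 of 82 members were below 0, and with the total count 58. With Rn45s left out of the library size 69 were below 0, where the median of all genes was 0.38. Without Lgr6-negative replicate 2, 65 of 81 tested members were below 0. Scaling by the total count in place of TMM moved the median of all genes from 0.10 to 0.56 and that of the members from -0.75 to -0.28, and left 3 members called lower, among them Rps13 and Rpl17. Measured against the median of all genes, the members' median was -0.85 with TMM and -0.84 with the total count. A change of scaling moves all genes by nearly the same amount, so these values had to be close and are no test of the shift. Leaving out Lgr6-negative replicate 2, the library with the largest share of Rn45s, left 7 members and 4.09% of all genes lower, with a members' median of -0.47, or -0.92 against the median of all genes. Leaving out Lgr6-positive replicate 1 gave 24 members and 8.21% of all genes lower, with a members' median of -0.57 against that of all genes.

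Within the small subunit, 12 of 33 members were lower (36.4%), against 4.57% of all tested genes and 19% of other abundant genes. Rps13, whose gene lies at chr7:116331505-116334195 on the minus strand (GRCm38), had 244.0 and 234.2 CPM in Lgr6-positive and 737.1 and 942.5 CPM in Lgr6-negative cells (log2 fold change -1.81, SE 0.33, adjusted p = 0.0122). Rps14, a platform protein whose loss causes the anaemia of human 5q- syndrome, had 281.5 and 144.8 CPM in Lgr6-positive and 599.8 and 867.5 CPM in Lgr6-negative cells (log2 fold change -1.78, SE 0.43, adjusted p = 0.0346). The Lgr6-positive libraries of Rps14 differed from each other more than those of Rps13 did.

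Rps23, which sits at the decoding centre, had 690.2 and 753.2 CPM in Lgr6-positive and 1571 and 2070 CPM in Lgr6-negative cells (log2 fold change -1.34, SE 0.27, adjusted p = 0.0182). Rps24 had 625.1 and 545.6 CPM in Lgr6-positive and 1309 and 1678 CPM in Lgr6-negative cells (log2 fold change -1.35, SE 0.28, adjusted p = 0.0211). The populations were clearly apart for both genes. Rps15, whose tail reaches the decoding site, had 524.7 and 552.1 CPM in Lgr6-positive and 1059 and 1561 CPM in Lgr6-negative cells (log2 fold change -1.28, SE 0.31, adjusted p = 0.0348). Rpsa, known also as the laminin receptor precursor, had 605.5 and 625.3 CPM in Lgr6-positive and 1170 and 1754 CPM in Lgr6-negative cells (log2 fold change -1.25, SE 0.30, adjusted p = 0.0358). Further called genes of this subunit were Rps7, Rps9, Rps10 and Rps27a, the last of which encodes a fusion with ubiquitin. Their log2 fold changes ran from -1.37 for Rps10 to -1.22 for Rps9, with adjusted p from 0.0370 to 0.0488, and none of these 4 was called without Lgr6-negative replicate 2. The calls of Rps14, Rps15 and Rpsa and, in the large subunit, Rpl29 were also lost without that library.

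**Figure D3:**
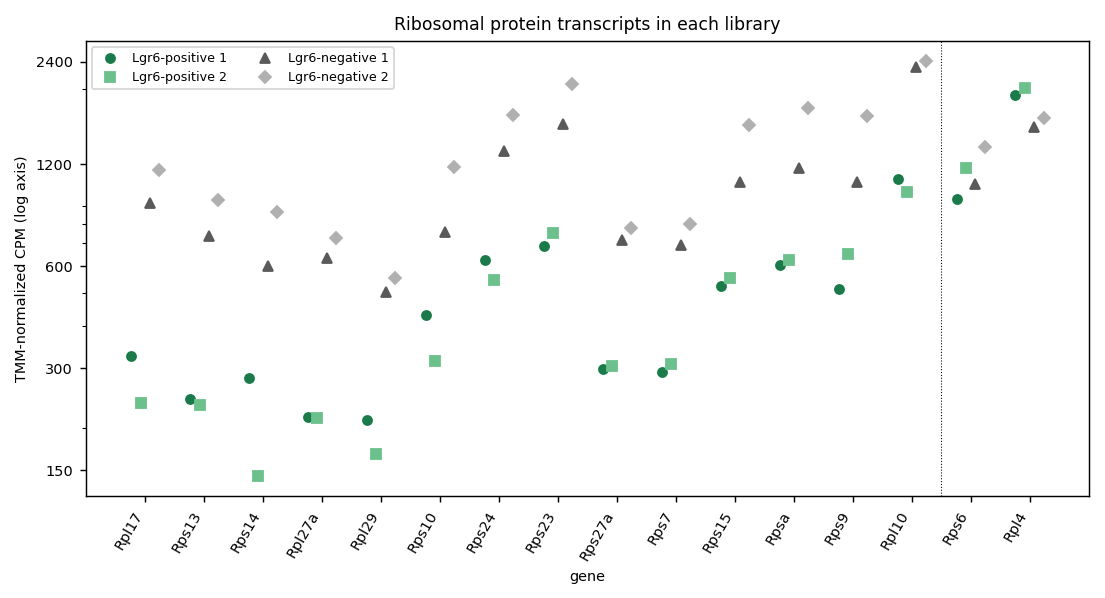
TMM-normalized CPM on a log axis in each library for 14 members called lower in Lgr6-positive cells (left of the dotted line, ordered by log2 fold change) and for Rps6 and Rpl4 (right of it). For the 14 called members both Lgr6-positive libraries lie below both Lgr6-negative libraries, whereas Rpl4 shows the reverse order and Rps6 overlaps.

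Of 49 tested members of the large subunit, 4 were lower (8.16%), against 4.57% of all tested genes and 19% of other abundant genes. Rpl17, which lies beside the tunnel by which the new protein leaves, had 327.2 and 236.6 CPM in Lgr6-positive and 918.2 and 1151 CPM in Lgr6-negative cells (log2 fold change -1.88, SE 0.34, adjusted p = 0.0111). Rpl27a had 215.2 and 213.9 CPM in Lgr6-positive and 633.6 and 726.7 CPM in Lgr6-negative cells (log2 fold change -1.66, SE 0.34, adjusted p = 0.0182). In both genes the replicates of a population lay close to each other relative to the gap between populations. Rpl10, which joins the large subunit at the last step of its assembly, had 1084 and 991.4 CPM in Lgr6-positive and 2313 and 2408 CPM in Lgr6-negative cells (log2 fold change -1.19, SE 0.23, adjusted p = 0.0162). The fourth was Rpl29, with a log2 fold change of -1.48 (SE 0.37, adjusted p = 0.0405). Just past the threshold stood Rpl39 with an adjusted p of 0.0555, Rpl21 with 0.0562 and Rpl23a with 0.0590.

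Calls fell on 36.4% of the tested small-subunit members and 8.16% of the large-subunit members. The large-subunit share lies below the 19% of other abundant genes called lower, and the small-subunit share above it. The median log2 fold change was -0.77 in the small and -0.73 in the large subunit. The difference between the subunits was not tested. Small-subunit genes held 40.1% and 39.7% of the member counts in Lgr6-positive libraries, against 41.5% and 43.1% in Lgr6-negative libraries. The shares were thus lower in both Lgr6-positive libraries, by a few percentage points.

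**Figure D4:**
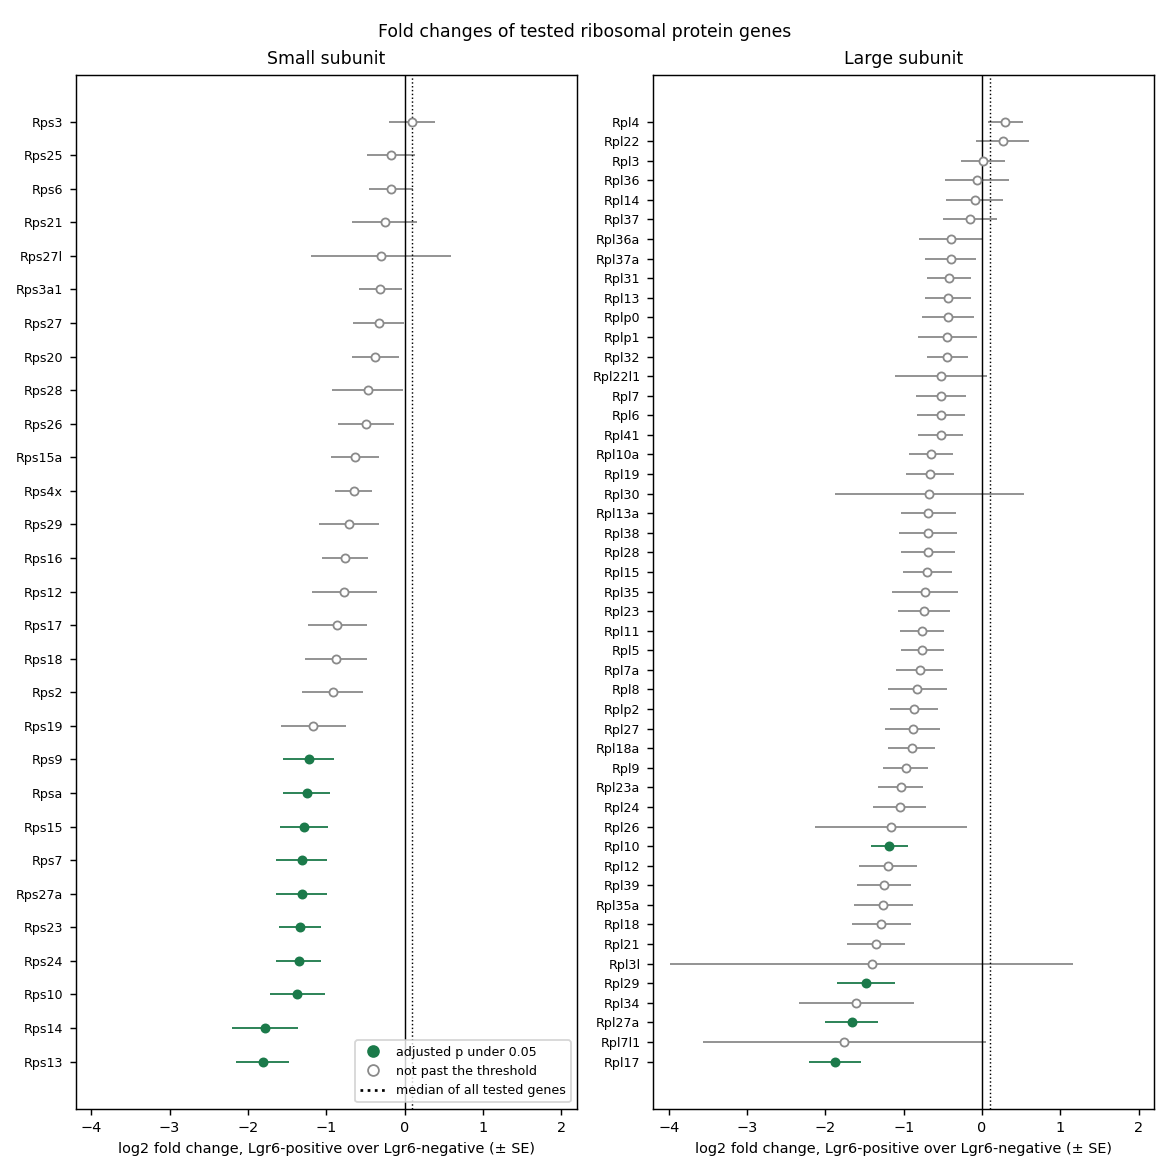
Log2 fold changes with SE for 78 of the tested ribosomal protein genes, small subunit and large subunit in separate panels, ordered by value, with called genes marked. Nearly all points lie left of 0, and Rpl4 stands at 0.30. Rps4l, at 4.63, is beyond the axis and not drawn.

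The 3 stalk proteins, which recruit the elongation factors, were not called, and the log2 fold changes of Rplp0 and Rplp1 turned to 0.040 and 0.047 with scaling by the total count. Rplp0 had 669.5 and 694.4 CPM in Lgr6-positive and 697.9 and 1148 CPM in Lgr6-negative cells (log2 fold change -0.44, SE 0.33, adjusted p = 0.491). Rplp1 had a log2 fold change of -0.44 (SE 0.38, adjusted p = 0.555) and its libraries overlapped. Rplp2 had 914.4 and 654.8 CPM in Lgr6-positive and 1186 and 1672 CPM in Lgr6-negative cells (log2 fold change -0.87, SE 0.31, adjusted p = 0.117). The ratio of Rplp1 to Rplp2 counts, its partner in the stalk dimer, was 0.654 and 0.665 in Lgr6-positive and 0.426 and 0.538 in Lgr6-negative libraries. Rpl5 and Rpl11 bind the 5S ribosomal RNA and, when free, the p53 regulator Mdm2. Rpl5 had a log2 fold change of -0.77 (SE 0.28, adjusted p = 0.121) and Rpl11 one of -0.76 (SE 0.28, adjusted p = 0.129). Both had all Lgr6-positive libraries below all Lgr6-negative ones.

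A few members went against the general direction. Rpl4, which lines the exit tunnel, had 1915 and 2005 CPM in Lgr6-positive and 1544 and 1643 CPM in Lgr6-negative cells (log2 fold change 0.30, SE 0.23, adjusted p = 0.499). Its populations were close but did not overlap. Rpl22, Rps3 and Rpl3 had log2 fold changes of 0.26, 0.10 and 0.01. Rps6, the substrate of the S6 kinases, had 949.5 and 1166 CPM in Lgr6-positive and 1045 and 1346 CPM in Lgr6-negative cells, with overlapping libraries (log2 fold change -0.18, SE 0.28, adjusted p = 0.783; 0.28 with scaling by the total count).

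Shares of the summed member counts do not depend on the scaling between libraries. Among 82 members, 25 had a larger share in both Lgr6-positive libraries than in either Lgr6-negative one, 28 had a smaller share and 29 overlapped. In TMM-normalized CPM, a different scale, both Lgr6-positive libraries lay above in 30% and below in 25.9% of all tested genes. Shares add up to the whole in each library, so a fall in some members forces a rise in others. These counts were not tested. Rpl4 held 4.49% and 4.82% in Lgr6-positive and 2.61% and 2.06% in Lgr6-negative libraries. Rpl17 held 0.768% and 0.569% in Lgr6-positive and 1.55% and 1.44% in Lgr6-negative libraries. Within a library the ratio of Rpl4 to Rpl17 counts was 5.85 and 8.48 in Lgr6-positive and 1.68 and 1.43 in Lgr6-negative cells. Both genes were among those named because their shares differed most between the populations without overlap. The ratio therefore had to be higher in both Lgr6-positive libraries and is no test.

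**Figure D5:**
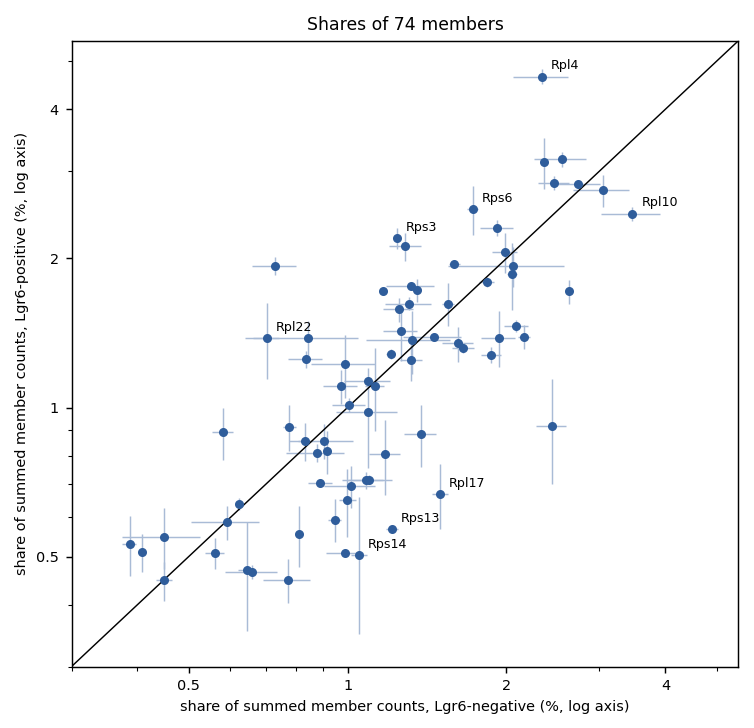
Share of the summed member counts held by each of the 74 members with at least 1000 counts in every library, Lgr6-positive mean (vertical) against Lgr6-negative mean (horizontal), both log axes. Bars span the 2 libraries and the line marks equal shares; Rpl4, Rps3 and Rpl22 lie above it and Rpl17, Rps13 and Rpl10 below it.

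When the edgeR fit was scaled to the summed members, an alternative added after seeing the data, 1 member was called higher and 1 lower. Rpl4 had 1.0 (adjusted p = 0.0588) and Rpl17 -1.16 (adjusted p = 0.0860). In that fit, 7.25% of all tested genes were called higher and 2.46% lower. The scaling itself centres the members near 0 (median -0.029), while the median of all genes was 0.80. Comparing the members with this background therefore says nothing about them. The order of the members was closer within a population than between populations. Across the 82 members, which are not independent replicates, Spearman's rho of CPM was 0.958 between the Lgr6-positive libraries. It was 0.953 between the Lgr6-negative libraries and 0.788 to 0.844 between populations. Pearson's r of log2 CPM was 0.962 between the Lgr6-positive libraries, 0.971 between the Lgr6-negative libraries and 0.893 to 0.913 between populations.

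Levels of different genes were compared per kilobase of transcript. On that scale Rpl41, the smallest ribosomal protein, ranked 1 of the members in both populations. Rps27, Rpl32 and Rplp2 ranked 2, 3 and 4 in Lgr6-positive cells and 4, 6 and 2 in Lgr6-negative cells. Rpl4 ranked 11 in Lgr6-positive and 38 in Lgr6-negative cells, and Rpl22 ranked 13 in Lgr6-positive and 41 in Lgr6-negative cells. Rpl17 took the opposite course, at 64 in Lgr6-positive and 27 in Lgr6-negative cells. Rpl4 and Rpl17 were picked for their differing shares and Rpl22 after its values were seen, so these moves are no test. Neither the length nor the base composition of the transcript followed the fold change closely. Over the 74 abundant members, Pearson's r with the log2 fold change was 0.12 for transcript length, -0.15 for GC content and -0.22 for the number of near-identical genomic copies. The 30 members that host small nucleolar RNAs had 6 lower calls (20%) and a median of -0.77. The 52 tested members that do not had 10 lower calls (19.2%) and a median of -0.70. Both shares are near the 19% of other abundant genes called lower.

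Several members are relatives of core ribosomal proteins and had few counts. Rps27l had 50.5 and 28.4 CPM in Lgr6-positive and 31.4 and 65.6 CPM in Lgr6-negative cells, and Rpl22l1 had 81.7 and 70.7 CPM in Lgr6-positive and 91.3 and 127.1 CPM in Lgr6-negative cells. Neither was called (log2 fold changes -0.30 and -0.52). Rpl7l1 had 84 and 12 counts in Lgr6-positive and 14 and 213 in Lgr6-negative libraries, and the replicates of each population lay far apart. Rpl3l, the muscle form of Rpl3, had 0 and 13 counts in Lgr6-positive and 0 and 25 in Lgr6-negative libraries. Rps4l stood apart, with 254 and 171 counts in Lgr6-positive and 1 and 11 in Lgr6-negative libraries. Its fitted log2 fold change was 4.63 (SE 1.82, edgeR adjusted p = 0.149), and DESeq2 gave an adjusted p of 0.0129. It is annotated as a transcribed processed pseudogene at chr6:148354656-148355598 on the plus strand. Its counts were 2.64% and 1.81% of those of Rps4x, the expressed small-subunit gene, in Lgr6-positive and 0.00877% and 0.100% in Lgr6-negative libraries.

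Ribosomal protein genes have many processed copies, among which reads can be divided. In GENCODE M21, 77 of 84 members had at least 1 copy with 95% identity over 80% of the coding sequence, with a median of 5 and as many as 57 for Rpl21. For 15 members such a copy has a row in the table. Rpl26 had 139 and 186 counts in Lgr6-positive and 248 and 296 in Lgr6-negative libraries, while its copy Gm15772 had 1569 and 1523 in Lgr6-positive and 2732 and 2701 in Lgr6-negative libraries. Rpl30 had 291 and 47 counts in Lgr6-positive and 286 and 123 in Lgr6-negative libraries, while its copy Gm12191 had 3869 and 4439 in Lgr6-positive and 5394 and 4655 in Lgr6-negative libraries. In both cases the copy held most of the counts, and the levels of Rpl26, Rpl30 and likewise Rpl34 are uncertain. For Rps27 the log2 ratio was -0.33 alone and -0.60 summed with its copy Rps27rt. Among 64 members with whole counts in every library, 62 were tested and 14 were lower, with a median of -0.76. The 20 members with a fractional count had 2 lower and a median of -0.65. These shares are 22.6% and 10%, against 4.57% of all tested genes and 19% of other abundant genes. Gene pairs on opposite strands may also share counts, since the labels state no strand setting. The transcripts of Rpl35, Rpl23a and Rpl5 overlap an opposite gene over 68.3%, 55.4% and 46.6% of their length. On the same strand, the transcripts of Rps10, Rpl24 and Rpl13a overlap exons of another gene over 91.6%, 71.5% and 59.3%. Rps10 is a called member, and the effect of these overlaps on its counts was not tested.

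Sequence before the start of transcription was taken from RefSeq (GRCm38.p6), which held a window for 63 members and 75 windows in all, each from 250 bases before to 50 after the start. Windows were searched on both strands for CTTTCC, a short pyrimidine run of the kind at these starts, for CCGGAAG, the core bound by ETS factors such as GABP, and for AAGATGGC, the core bound by YY1. CTTTCC was in 37 of 75 windows (49.3%), against 26.6% of all 32851 windows. CCGGAAG was in 27 (36%), against 8.86% of all, and AAGATGGC in 8 (10.7%), against 2.75%. In the 11 windows of members called lower these matches numbered 4, 4 and 0, and in the 62 windows of members not called 31, 22 and 8; the other 2 windows belong to untested members. Stretches from 120 bases before to 15 after the start are shown for 3 abundant members with low and 3 with higher fold changes. They set promoters of genes that differ in fold change side by side and are not the extremes of all members. Rpl17 and Rps14 had lower fold changes than Rpl27a and Rps10 and are not shown. Capitals mark matches to the searched motifs.
Rps13 (chr7:116334176-116334310, minus strand): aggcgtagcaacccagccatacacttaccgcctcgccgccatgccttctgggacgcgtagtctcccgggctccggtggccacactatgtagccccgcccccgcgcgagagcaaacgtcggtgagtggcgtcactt
Rpl27a (chr7:109519075-109519209, plus strand): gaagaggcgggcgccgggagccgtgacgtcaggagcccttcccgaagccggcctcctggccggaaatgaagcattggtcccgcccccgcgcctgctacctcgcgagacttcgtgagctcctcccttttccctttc
Rps10 (chr17:27635230-27635364, minus strand): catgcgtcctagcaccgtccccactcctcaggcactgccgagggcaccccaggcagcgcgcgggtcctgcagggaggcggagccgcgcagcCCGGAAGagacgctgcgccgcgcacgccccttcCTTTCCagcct
Rpl14 (chr9:120571397-120571531, plus strand): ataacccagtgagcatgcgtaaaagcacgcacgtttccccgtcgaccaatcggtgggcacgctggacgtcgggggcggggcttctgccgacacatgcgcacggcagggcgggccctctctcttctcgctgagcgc
Rps3 (chr7:99483695-99483829, minus strand): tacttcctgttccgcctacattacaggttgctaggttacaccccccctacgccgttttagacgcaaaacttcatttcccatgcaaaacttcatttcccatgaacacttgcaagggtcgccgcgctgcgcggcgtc
Rpl4 (chr9:64173267-64173401, plus strand): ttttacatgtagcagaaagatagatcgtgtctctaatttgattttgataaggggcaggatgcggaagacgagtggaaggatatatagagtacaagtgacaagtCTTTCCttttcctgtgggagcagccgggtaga

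Rps13, Rpl27a and Rps10 were called lower, and Rpl14, Rps3 and Rpl4 were not called, with log2 fold changes of -0.09, 0.10 and 0.30. In these stretches Rps10 held CCGGAAG and CTTTCC and Rpl4 held CTTTCC, while the other 4 held no exact match to the searched motifs. The search took exact matches anywhere in a window and on both strands, so it does not measure a pyrimidine run at the start. The Rpl27a stretch, without a match, still ends in pyrimidines only (tcccttttccctttc). A match in these letters is a description and not a binding site.

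Ribosome components that the symbol rule leaves out were also lower or not called. Fau, a ubiquitin-like fusion that gives a small-subunit protein, had 221.5 and 257.7 CPM in Lgr6-positive and 573.4 and 1020 CPM in Lgr6-negative cells (log2 fold change -1.73, SE 0.39, adjusted p = 0.0263). Gnb2l1, the row of the scaffold protein Rack1, had 373.4 and 412.1 CPM in Lgr6-positive and 1020 and 1302 CPM in Lgr6-negative cells (log2 fold change -1.56, SE 0.30, adjusted p = 0.0152). Rpl36al had a log2 fold change of -1.17 (adjusted p = 0.141). These 3 genes had both Lgr6-positive libraries below both Lgr6-negative libraries.

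Other genes of translation were described from lists of known components. Of 16 elongation factors and further genes with a pyrimidine start, 1 was lower and 0 were higher, with a median log2 fold change of -0.53. The lower one was Tpt1, with 1075 and 757.1 CPM in Lgr6-positive and 2584 and 2312 CPM in Lgr6-negative cells (log2 fold change -1.42, SE 0.27, adjusted p = 0.0136). Eef1a1, which brings transfer RNAs to the ribosome, had 4801 and 4841 CPM in Lgr6-positive and 5743 and 5702 CPM in Lgr6-negative cells (log2 fold change -0.25, adjusted p = 0.440), and Eef2 had a log2 fold change of 0.68 (adjusted p = 0.191). The subunits Eif3k, Eif3h and Eif3f of an initiation complex had -1.79, -1.42 and -1.31 and were not called. Of 22 tested initiation factors, 0 were called and the median was -0.30.

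Genes that build ribosomes were not called in either direction. Of 30 tested biogenesis genes, 19 had log2 fold changes above 0 and the median was 0.51. Bop1, a factor of large-subunit assembly, had 867 and 176 counts in Lgr6-positive and 20 and 19 in Lgr6-negative libraries (log2 fold change 4.30, SE 1.23, adjusted p = 0.0640). Ncl, the nucleolar protein nucleolin, had a log2 fold change of 0.76 (SE 0.38, adjusted p = 0.271). Among 16 tested genes of the mTOR and S6 kinase pathway and the Myc family, 0 were called and the median was -0.02. Myc, a transcription factor that drives ribosome production, had 139.4 and 183.9 CPM in Lgr6-positive and 43.2 and 37.3 CPM in Lgr6-negative cells (log2 fold change 2.0, SE 0.58, adjusted p = 0.0664). Of 75 tested mitochondrial ribosomal protein genes, 0 were called and the median was -0.50, with 48 below 0.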

How the data were processed

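RNA was sequenced in 2 Lgr6-positive and 2 Lgr6-negative libraries. The authors deposited expected counts per gene, estimated with RSEM 1.2.22 and STAR 2.4.2a on mm10, per the submitters' processing notes. No annotation or strand setting is stated. RSEM divides reads among similar genes, so copies share counts. Values were rounded to whole counts. Genes were kept with filterByExpr (minimum count 10, total 15) and tested with edgeR 4.0.16 in R 4.3.3 (TMM, quasi-likelihood, group only, Benjamini-Hochberg adjustment over 11661 genes). The steps were also run on simulated data with 200 random genes changed in either direction. These held no one-sided shift of abundant genes and no unequal share of Rn45s, so they do not test the scaling used here. Standard errors (SE) are of log2 fold changes, Lgr6-positive over Lgr6-negative. With 74 members above 1000 counts in every library, counting error is small, and a count of 0 allows up to 3 counts. DESeq2 1.42.0 and limma 3.58.1 were alternatives. Positions, lengths and copies came from GENCODE M21 (GRCm38, the build called mm10) and BLAST 2.17.0. Replicates were not duplicates (chi-square per degree of freedom 73.6 and 83.2 over members). Deviations of same-numbered libraries correlated at -0.02 over all tested genes and 0.11 over the members, and with 2 pairs the numbers were not taken as pairs. The members and lists were chosen with earlier results of these data known. Named genes were the 10 members called lower with the smallest p, since 0 were called higher. The extremes of level, fold change and share, relatives, and stalk and 5S-binding genes were also named. So were up to 4 genes of each translation list and context genes. Others, including Rps3, Rps7, Rps9, Rps10, Rps27a, Rpl3, Rpl21, Rpl22, Rpl23a, Rpl29, Rpl34, Rpl39 and Eef1a1, were named after their values were seen. Some genes are not reported here by name.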

Additional observations from a re-analysis of the deposited data

How the results depend on the processing

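With 2 libraries per population, calls moved with the setting, and the cause was not tested. The count of members lower (16) and their median log2 fold change (-0.75) became 3 and -0.28 with scaling by library size, which called 327 of all genes lower, and 5 and -0.47 with Rn45s left out of library size. Calls among all genes were 65.8% higher under library size, 58.5% under DESeq2 and 74.7% under scaling to the summed members, against 49.6% in the main test. Scaling to the summed members, added after seeing the data, gave 1 member higher, 1 lower and a median of -0.029, with 846 of all genes higher and 287 lower. Without a filter 967 genes were higher and 854 lower. DESeq2 gave 1 member higher, with 1412 genes higher and 1003 lower, and limma-voom gave 27 members lower, with 6.24% of all genes lower against 4.57% in the main test. Leaving out each library in turn gave 7 to 24 members lower (7 without Lgr6-negative replicate 2), medians of -0.97 to -0.47, 678 to 956 genes higher and 540 to 1030 lower, where the lone library is assumed to vary like the others. With the replicate block, 18 members were lower, which include all 16. DESeq2 size factors gave 15, upper-quartile scaling 14, and TMM on non-members 16. Of the 82 tested members, 76 were below 0 in the main test and 58 under library size. The number was 69 without Rn45s and 44 under scaling to the summed members, so many members changed sign. Only genes followed across the settings are listed next. Among these, signs turned for Rps4x (0.052), Rpl13 (0.32), Rpl22l1 (0.21), Rps27l (0.47), Rplp0 (0.31), Rplp1 (0.31) and Rps6 (0.54) under scaling to the summed members. They turned for Rpl13 (0.047), Rps27l (0.21), Rplp0 (0.040), Rplp1 (0.047) and Rps6 (0.28) under library size, and for Rps27l (0.0041) and Rps6 (0.10) without Rn45s. Leaving out each library gave log2 fold changes of -3.71 to 1.40 for Rpl7l1, -2.48 to 0.074 for Rpl30, -0.78 to 0.31 for Rps27l, -0.82 to 0.014 for Rplp1 and -0.36 to 0.0014 for Rps6. For 58 genes followed under 15 alternatives, 734 values kept their side and direction and 20 changed sign. A further 48 came past the threshold and 65 no longer passed it.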
